A study of Macaca fascicularis with 44 samples.

Results

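Of 17293 gene identifiers counted in brain libraries of female cynomolgus macaques (Macaca fascicularis), 24 stood at a low level in the dentate gyrus of the hippocampus and at a similar, higher level in the amygdala and the cingulate cortex. The 24 genes were chosen on saline libraries by their CPM, the count of a gene scaled to the gene reads of its library. In each of them the highest CPM among posterior dentate gyrus (pDG) libraries was at most 50% of the lowest CPM in the basolateral amygdala (BLA) and in the anterior cingulate cortex (ACC). Their mean CPM in BLA and in ACC was at least 2 in both, and the 2 means lay within 1.5-fold of each other. BLA saline replicate 5 was left out of that choice. The anterior dentate gyrus (aDG) and all betamethasone libraries had no part in it.

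The dentate gyrus is the entry stage of the hippocampal circuit, and its principal neurons are small, densely packed granule cells that send mossy fibres to the CA3 field. The basolateral amygdala, which serves emotional learning, is built mainly of glutamatergic projection neurons that resemble cortical pyramidal cells, and the anterior cingulate cortex is a layered cortex of pyramidal cells and interneurons. Betamethasone is a synthetic glucocorticoid that acts through the glucocorticoid receptor, which is present in all of these regions. The tissue was measured in bulk, so fewer cells of a type and less RNA per cell cannot be told apart in any difference given here.

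RNA-seq was carried out on 44 libraries in 8 groups. From animals given betamethasone there were 5 libraries of aDG, 5 of pDG, 4 of BLA and 6 of ACC, and from animals given saline there were 6 of each region. The labels give no age, dose, route or duration, and they do not say whether libraries of a group, or of different regions, came from separate animals. The p-values therefore measure the spread between libraries, which may be technical. Replicate numbers follow the order of deposit and only name a library.

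Each library held between 28449737 and 83322595 gene reads. All 24 genes had reads in every library, the lowest count being 1, and all 24 passed the filter on low counts in every comparison of all libraries (23 did for treatment in pDG without saline replicate 1, 2, 3 or 5). None of the 24 identifiers stood on more than 1 row of the files. The files do not pair identifiers with gene names, and 0 of the identifiers matched the RefSeq gene table used here. The genes are therefore given without name, position or function, and the tissue labels could not be checked against cell type markers. CPM is not scaled to transcript length, so levels are compared between libraries and not between genes. The libraries that stood apart on these genes were saline ones, namely the library labelled aDG saline replicate 5 and BLA saline replicate 5. Several counts and treatment differences that use either one are given with and without it. Other values are given 1 way only, and it is said where a library is left out.

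Summed over the 24 genes, the level in the dentate gyrus was a fraction of that in the other regions, with both treatments. In saline libraries the rule set the gap of pDG below BLA and ACC in advance, so those sums are a description. With betamethasone the sum was 149 to 250.2 CPM in aDG (median 169) and 103 to 161 CPM in pDG (median 136). It was 768 to 945 CPM in BLA (median 842) and 774 to 895 CPM in ACC (median 827). With saline, without replicate 5 of aDG and BLA, the sums were 148 to 246 CPM in aDG (median 173), 132 to 161 CPM in pDG (median 140.3), 692 to 885 CPM in BLA (median 812) and 753 to 851 CPM in ACC (median 819). Apart from the library labelled aDG saline replicate 5 (741 CPM), the highest dentate sum therefore lay below the lowest sum of BLA and ACC, and BLA saline replicate 5 held the highest sum of all libraries (1310.0 CPM). Genes with many reads weigh most in these sums.

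**Figure D1:**
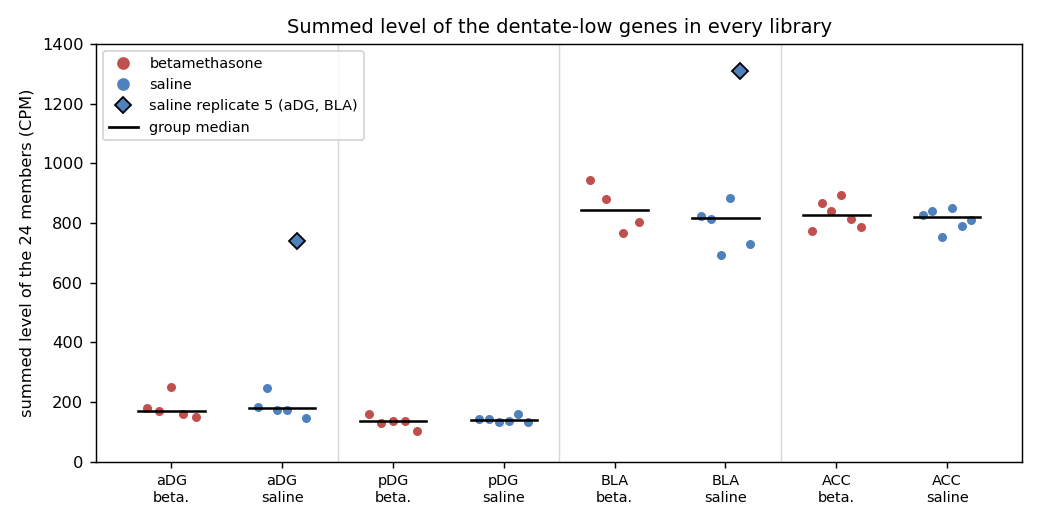
Summed level of the 24 genes (CPM, linear axis from 0) in each library, by region and treatment, with betamethasone libraries in red, saline libraries in blue and a line at each group's median. The saline circles of pDG, BLA and ACC chose the genes, so the gap between them was set by the rule. Leaving out the diamonds, the dentate libraries lie at 103 to 250.2 CPM and the BLA and ACC libraries at 692 CPM or more; the diamonds mark saline replicate 5 of aDG (741 CPM) and of BLA (1310.0 CPM).

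The saline values below chose the genes and are a description, with no test. BLA saline replicate 5, which had no part in the choice, is left out of them unless it is named. Taken gene by gene, the highest pDG saline value was 13.4% to 48.7% of the lowest BLA or ACC saline value (median 40.3%). The mean of pDG saline libraries was 6.78% to 29.2% of the mean of the BLA and ACC saline means (median 17.7%). The genes spanned a wide range of CPM, with means of 2.51 to 167 CPM in BLA saline without replicate 5 and of 2.08 to 174 CPM in ACC saline.

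The widest gap was that of ENSMFAG00000032887. Its CPM ran from 9.12 over a median of 11.0 to 12.5 in pDG saline libraries. In BLA saline libraries without replicate 5 it was 122, 116, 149, 104 and 121, and in ACC saline libraries it ran from 93.0 over 109 to 118. The pDG libraries were all low and close together, and the lowest library of BLA or ACC stood 7.46-fold above the highest of pDG. ENSMFAG00000041381, a gene with few reads, had 0.157 to 0.333 CPM in pDG saline libraries, 2.08 to 4.98 CPM in the 5 BLA saline libraries and 1.68 to 5.74 CPM in ACC saline libraries, which left a gap of 5.04-fold.

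The 2 genes with the most reads were ENSMFAG00000003153 and ENSMFAG00000039720. The CPM of ENSMFAG00000003153 ran from 13.3 over 23.2 to 28.4 in pDG saline libraries, against 76.5 to 160.0 in the 5 BLA and 114 to 222 in the ACC saline libraries. ENSMFAG00000039720 was far more even between libraries, with 33.7, 37.6 and 41.8 CPM (lowest, median, highest) in pDG saline, 178, 158, 148, 199.6 and 152 CPM in the 5 BLA saline libraries and 124 to 134 CPM in ACC saline. In both genes the pDG saline libraries lay below the 5 BLA and all ACC saline libraries, as the rule required. BLA saline replicate 5 held 15.9 CPM of ENSMFAG00000003153, within the pDG range, and 197 CPM of ENSMFAG00000039720.

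At the edge of the rule the gap was narrow. ENSMFAG00000040768, the gene just inside, had a highest pDG value of 6.99 CPM against a lowest ACC value of 14.3 CPM (48.7%), and the next, ENSMFAG00000032453, had 11.2 against 23.1 CPM (48.3%). The nearest genes outside were ENSMFAG00000039676, with 31.8 CPM in its highest pDG library against 63.4 CPM in its lowest BLA library (50.2%), and ENSMFAG00000038328, with 1.88 against 3.71 CPM (50.5%). Of 10042 genes with the same level in BLA and ACC under the rule, 24 met the rest of it; with the pDG and ACC roles exchanged the rule found 17 genes low in ACC, with pDG and BLA exchanged 11 genes low in BLA, and turned round it found 18 genes high in pDG.

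**Figure D2:**
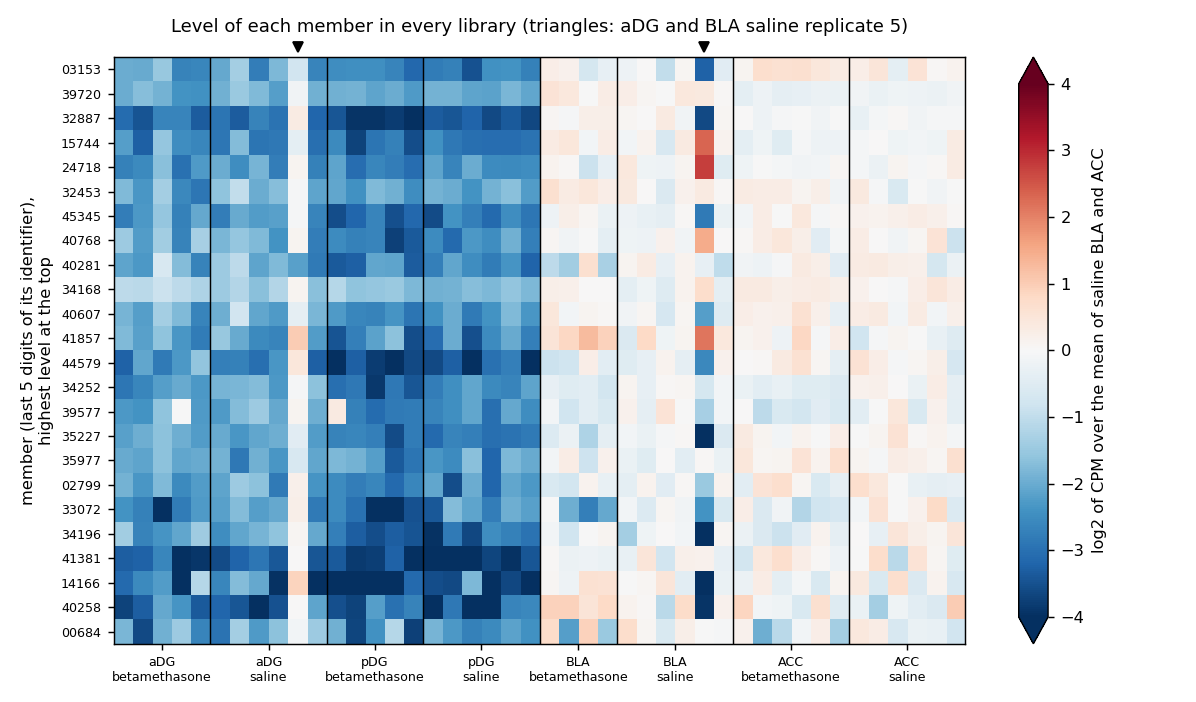
Level of each of the 24 genes (rows, labelled with the last 5 digits of the identifier) in each of the 44 libraries (columns, by region and treatment), as log2 of CPM over the mean of saline BLA (without replicate 5) and ACC. The dentate columns are mostly blue (low) and the BLA and ACC columns mostly pale, except for aDG saline replicate 5, which is as pale as BLA, and BLA saline replicate 5, which is mixed (both marked by triangles).

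The choice of the genes depended on the library left out and little on the strand. With BLA saline replicate 5 kept in, the same rule found 10 genes, 9 of them among the 24. On unstranded counts it found 21 genes, all of them among the 24. In 16 of the 24 genes under 1% of the reads lay on the opposite strand (median 0.558%, against 0.245% over all genes of at least 2 CPM), and in 2 genes the share was at least 10%, with a highest value of 38.1%.

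Whether the regional pattern held in libraries that did not choose the genes was asked of the 20 betamethasone libraries. All 24 genes had lower fitted values in pDG than in BLA and in ACC, and nearly all passed the test. Against BLA, 23 of 24 genes were lower in pDG (edgeR quasi-likelihood test, adjusted p under 0.05 over the 14962 genes tested); of all genes 11.4% were lower. The median log2 difference of the 24 was -2.62, a 6.14-fold lower level (range -4.60 to -1.03), beside 0.02 over all genes. Against ACC, 23 of 24 genes were lower in pDG, where 24.2% of all genes were lower. The median there was -2.78 (range -4.18 to -0.95), beside 0.01 over all genes.

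ENSMFAG00000032887 led both. It had 10.7, 7.60, 7.63, 8.27 and 6.79 CPM in pDG betamethasone libraries. In BLA it had 120.1, 110.3, 134 and 136 CPM, and in ACC betamethasone libraries its CPM ran from 99.5 over 112 to 115. No pDG library came near the other regions. The log2 difference was -3.95 ± 0.16 (SE; edgeR adjusted p = 1.18e-12) of pDG against BLA and -3.75 ± 0.15 (edgeR adjusted p = 2.2e-13) of pDG against ACC.

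ENSMFAG00000039720, second against BLA, had 38.8, 40.0, 34.3, 37.7 and 30.6 CPM in pDG and 217, 201, 147 and 181 CPM in BLA betamethasone libraries. The groups were far apart (log2 difference -2.36 ± 0.13, SE; adjusted p in edgeR = 1.2e-10). ENSMFAG00000034168, second against ACC, had 11.7, 8.39, 8.72, 9.22 and 7.35 CPM in pDG, against 30.1, 31.7 and 33.2 CPM (lowest, median, highest) in ACC. Its difference was smaller but the ACC libraries were tightly grouped (log2 difference -1.81 ± 0.10, SE; edgeR adjusted p = 1.99e-11).

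The gap that defined the genes in saline libraries was mostly present with betamethasone. For 19 of the 24 genes the highest pDG betamethasone value was at most 50% of the lowest BLA or ACC betamethasone value, which held for 0.739% of the 12181 genes with means of at least 2 CPM there. For 21 the pDG libraries lay below all BLA and ACC libraries without overlap, against 5.59% of genes. The 3 genes that overlapped, named after their values were seen, were ENSMFAG00000000684, ENSMFAG00000033072 and ENSMFAG00000039577. The whole rule, applied to betamethasone libraries alone, found 45 genes, 15 of them among the 24.

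The overlap of ENSMFAG00000000684 and ENSMFAG00000033072 came from low values in BLA or ACC. ENSMFAG00000000684 had 3.79, 0.494, 4.38 and 0.820 CPM in BLA betamethasone libraries and 0.598 to 2.74 CPM in ACC, beside 0.173 to 1.04 CPM in pDG. ENSMFAG00000033072 had 4.22 CPM in BLA betamethasone replicate 1 but 1.10, 0.640 and 1.05 CPM in the other 3, beside 0.0944 to 0.757 CPM in pDG. Both passed the test of pDG against BLA (edgeR adjusted p = 0.0117 and 0.00599). Without BLA betamethasone replicate 1 ENSMFAG00000033072 did not (log2 difference -1.22, edgeR adjusted p = 0.0797), and without BLA betamethasone replicate 3 ENSMFAG00000000684 did not (log2 difference -1.85, edgeR adjusted p = 0.0606). Against ACC, ENSMFAG00000000684 lost its call without pDG betamethasone replicate 2 or 5 (edgeR adjusted p = 0.0541 and 0.052).

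ENSMFAG00000039577 was the 1 gene of the 24 that did not pass in any of the 4 comparisons of a dentate part with BLA or ACC, and 1 library of each dentate part stood far from the others. In pDG it had 14.1 CPM in betamethasone replicate 1 and 1.68, 1.30, 1.54 and 1.58 CPM in the other 4. In aDG it had 11.0 CPM in betamethasone replicate 4 and 2.24, 2.11, 3.64 and 2.27 CPM in the other 4. In BLA it had 10.3, 6.34, 8.25 and 7.25 CPM, and in ACC betamethasone libraries 5.38 to 11.1 CPM (median 7.24). One library of each dentate part thus stood at or above the level of BLA and ACC, and the others lay below it.

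With all libraries the log2 difference of ENSMFAG00000039577 was -1.03 ± 0.61 for pDG against BLA and -0.95 ± 0.56 for pDG against ACC (SE; edgeR adjusted p = 0.249 and 0.176). Without pDG betamethasone replicate 1 these were -2.40 and -2.32 (edgeR adjusted p = 0.00027 and 0.000106). Then 24 of 24 genes passed in both, where 1707 and 3487 of the 14953 genes tested were lower. The aDG differences were -0.98 against BLA and -0.89 against ACC (edgeR adjusted p = 0.255 and 0.188), and -1.68 and -1.56 without aDG betamethasone replicate 4 (edgeR adjusted p = 0.0484 and 0.0235). In pDG betamethasone replicate 1, 11 of the 24 genes had their highest value of the 5 pDG betamethasone libraries. The same was not counted over all genes, so nothing particular to the 24 is read from it. What set these libraries apart was not tested.

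**Figure D3:**
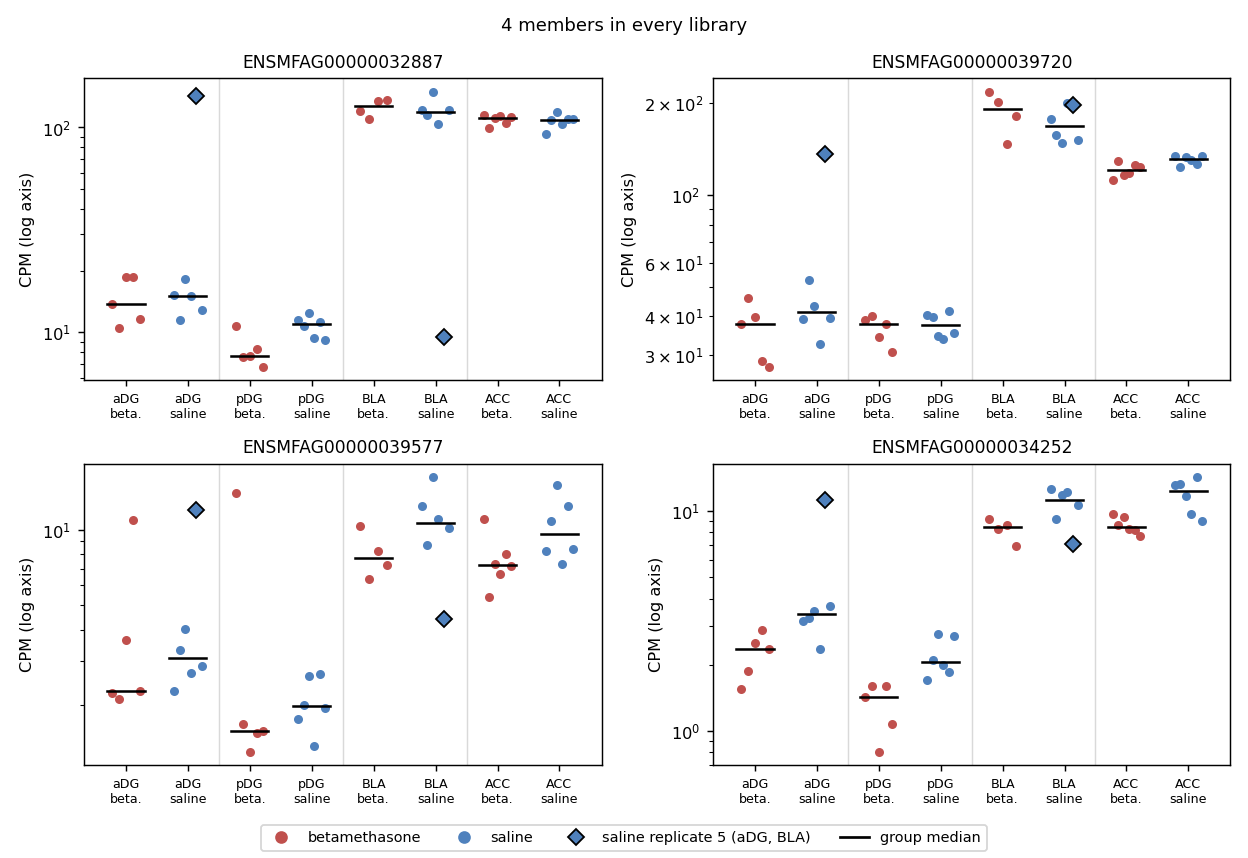
CPM of 4 of the genes in every library (log axes), by region and treatment, with a line at each group's median and diamonds for saline replicate 5 of aDG and BLA. ENSMFAG00000032887 and ENSMFAG00000039720 show the low dentate groups, ENSMFAG00000039577 the single betamethasone libraries at 14.1 CPM (pDG) and 11.0 CPM (aDG), and ENSMFAG00000034252 has its lowest betamethasone values in pDG (0.804 to 1.60 CPM).

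The anterior dentate gyrus, which the rule did not use, was low as well. Against BLA, 23 of 24 genes were lower in aDG betamethasone libraries (edgeR adjusted p under 0.05), where 11.9% of all genes were lower, with a median log2 difference of -2.05 (range -3.63 to -0.98; all genes 0.04). Against ACC, 23 of 24 were lower, where 26.3% of all genes were lower, with a median of -2.25 (range -3.59 to -0.89; all genes 0.02).

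ENSMFAG00000032887 led again, with 13.7, 10.5, 18.5, 18.6 and 11.5 CPM in aDG betamethasone libraries, far below the BLA and ACC libraries given above. Its log2 difference was -3.14 ± 0.15 against BLA and -2.95 ± 0.14 against ACC (SE; edgeR adjusted p = 2.91e-11 and 4.71e-12). ENSMFAG00000039720 had 37.8, 45.8, 39.9, 28.5 and 27.4 CPM in aDG, below its lowest BLA library (147 CPM) and its lowest ACC library (112 CPM). Its log2 difference was -2.41 ± 0.13 against BLA and -1.79 ± 0.12 against ACC (SE; edgeR adjusted p = 1.06e-10 and 5.33e-10).

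Fewer genes kept the full gap in aDG. The highest aDG betamethasone value was at most 50% of the lowest BLA or ACC value for 11 of 24 genes (0.337% of all genes), and the groups did not overlap for 20 (4.88% of all genes). In saline libraries, without replicate 5 of aDG and of BLA, the first held for 13 of 24 genes (0.316% of all genes) and the second for 24 (3.08%); BLA and ACC saline libraries chose the genes, so this is a description. With both libraries kept in, the first held for 0 genes and the second for 2. These counts were not made over all genes, so nothing particular to the 24 is read from them. The aDG saline mean was 10.3% to 37.6% of the mean of the BLA and ACC saline means without them (median 23.8%), and 19.9% to 49.0% with them (median 37.7%).

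Between the dentate parts the level was higher in aDG for most of the genes. In betamethasone libraries the aDG mean exceeded the pDG mean for 23 of 24 genes, where it did so for 57.9% of all genes with a mean of at least 0.2 CPM, and the median ratio was 1.53. In the fit of all 20 betamethasone libraries 8 of 24 genes were higher in aDG and 0 lower (edgeR adjusted p under 0.05), where 1.44% of all genes were higher and 1.24% lower. The median log2 difference was 0.59 (range -0.05 to 1.90), beside 0.00 over all genes. In saline libraries without aDG replicate 5 the aDG mean exceeded the pDG mean for 23 of 24 genes too (59.8% of all genes; median ratio 1.39), with pDG libraries that chose the genes. With that library it did so for 24 (median ratio 2.11), which was not counted over all genes.

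These calls changed with the fit and with single libraries. With aDG and pDG fitted alone, 0 of 24 genes passed in edgeR (0.284% of all genes were higher), although 13 had an unadjusted p under 0.05 (11.7% of all genes). The sizes of the differences were nearly the same in both fits, with a median of 0.59 in each. DESeq2 called 9 in the fit of all regions, all of them higher in aDG, where it called 2.49% of all genes higher. Without 1 library the count was 3 to 8, where 107 to 286 of all genes tested were higher. It was 4 and 5 without aDG betamethasone replicates 3 and 5 (283 of 14945 and 138 of 14960 genes were higher). It was 5 and 3 without pDG betamethasone replicates 3 and 4 (147 of 14944 and 107 of 14972 genes). In aDG betamethasone replicate 3, 14 of the 24 genes had their highest value of the 5 libraries, which was not counted over all genes either.

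ENSMFAG00000032887, the leading gene here too, had 10.5 to 18.6 CPM in aDG and 6.79 to 10.7 CPM in pDG betamethasone libraries, overlapping only at the edge. The log2 difference was 0.80 ± 0.14 (SE; edgeR adjusted p = 0.00389), and with both parts fitted alone it was again 0.80 (edgeR adjusted p = 0.108). ENSMFAG00000034196 had 1.52, 0.633, 0.778, 0.960 and 1.51 CPM in aDG and 0.611, 0.409, 0.347, 0.409 and 0.366 CPM in pDG betamethasone libraries, so that every aDG library was above every pDG library. Its log2 difference was 1.32 ± 0.28 (SE; edgeR adjusted p = 0.015), and again 1.32 with both parts fitted alone (edgeR adjusted p = 0.12).

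In saline libraries the genes differed in how far aDG stood above pDG. ENSMFAG00000034196 had the highest ratio of means (2.03), with 0.717, 0.964, 1.12, 1.32 and 0.966 CPM in aDG without replicate 5 and 0.258 to 0.720 CPM in pDG. ENSMFAG00000040281 followed (1.79), with 9.54, 12.6, 6.04, 7.71 and 3.71 CPM in aDG and 2.86 to 6.21 CPM in pDG, and its groups overlapped. The lowest ratios were those of ENSMFAG00000035977 (0.995; 0.664 to 1.29 CPM in aDG and 0.534 to 1.52 CPM in pDG) and ENSMFAG00000024718 (1.04; 10.1 to 18.6 CPM in aDG and 10.8 to 17.1 CPM in pDG). For these last 2 the 2 dentate parts covered almost the same range. With replicate 5 the ratios of these genes were 3.10 for ENSMFAG00000034196, 1.71 for ENSMFAG00000040281, 1.31 for ENSMFAG00000035977 and 1.79 for ENSMFAG00000024718.

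The genes had been chosen for a similar mean in BLA and ACC, and in betamethasone libraries 3 of 24 differed between the 2 regions (edgeR adjusted p under 0.05), where 40.5% of all genes did; 1 was higher (18.6% of all genes) and 2 were lower (22% of all genes) in BLA. The log2 differences of BLA against ACC ran from -0.86 to 0.68, with a median of -0.11, beside -0.03 over all genes. The betamethasone means lay within 1.5-fold for 19 of 24 genes, and for 81.8% of all genes. A gene that did not pass is not thereby shown to be equal in both regions.

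ENSMFAG00000039720 was the gene higher in BLA, with 147 to 217 CPM in BLA and 112 to 129 CPM in ACC betamethasone libraries and no overlap (log2 difference 0.62 ± 0.12, SE; edgeR adjusted p = 0.000402). ENSMFAG00000035227 was lower in BLA, with 5.25, 6.51, 3.26 and 5.93 CPM, than in ACC, with 6.97, 8.23 and 9.82 CPM (lowest, median, highest). Its groups did not overlap either (log2 difference -0.68 ± 0.19, SE; edgeR adjusted p = 0.00778). ENSMFAG00000003153 had 182, 168, 91.2 and 119 CPM in BLA, against 163, 217 and 238 CPM (lowest, median, highest) in ACC, with some overlap. Its log2 difference of -0.59 ± 0.21 (SE; edgeR adjusted p = 0.0319) lost the call without BLA betamethasone replicate 3 or 4 or ACC betamethasone replicate 2, 3 or 4 (edgeR adjusted p from 0.0563 to 0.148). With BLA and ACC fitted alone, 7 of the 24 genes passed (46.2% of all genes).

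**Figure D4:**
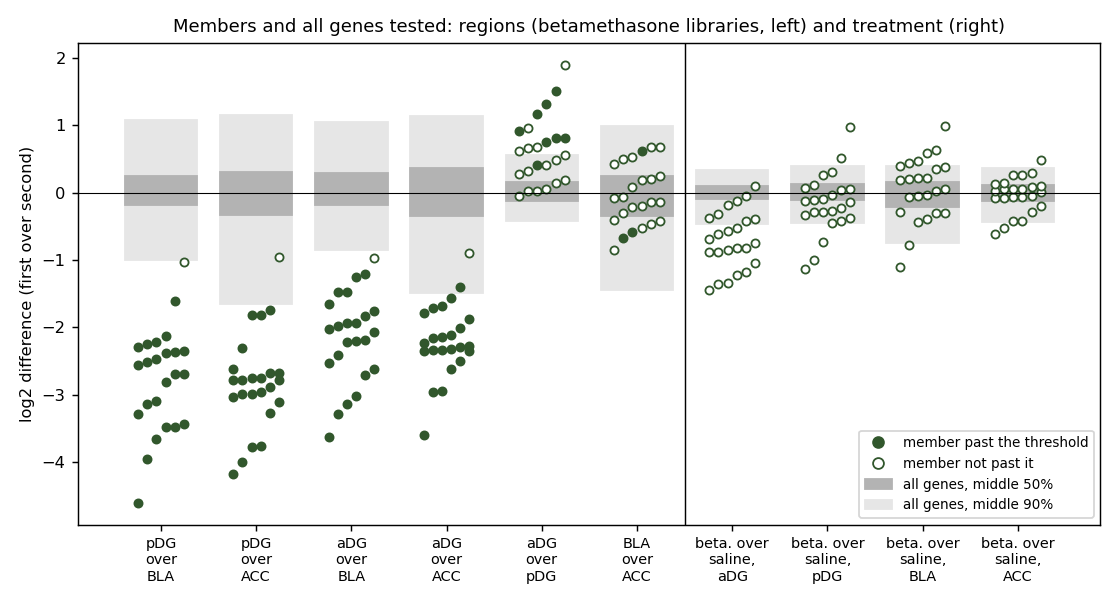
Log2 differences (first group over second) of the 24 genes (circles, filled where edgeR's adjusted p was under 0.05) in 6 comparisons of regions within betamethasone libraries and in 4 of betamethasone with saline, beside the middle 50% and 90% of all genes tested (grey). In the 4 comparisons of a dentate part with BLA or ACC all circles lie below 0, with medians of -2.78 to -2.05; in the others the medians lie near 0, apart from aDG over pDG (0.59) and treatment in aDG with all libraries (-0.72).

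The study's own question, whether the glucocorticoid changed expression in each region, was then put to the 24 genes. Only in aDG did the rule use neither group of libraries. In aDG 0 of 24 genes passed (0.00689% of the 14511 genes tested did) and 2 had an unadjusted p under 0.05 (3.71% of all genes). In pDG, BLA and ACC the saline libraries also chose the genes, so their counts are given as a description from which nothing is read. In pDG 0 passed (0.00693% of 14427 genes) and 4 had an unadjusted p under 0.05 (8.72%). In BLA 0 passed (0 of 14644 genes) and 1 had an unadjusted p under 0.05 (10.2%), or 7 without saline replicate 5 (13.1%). In ACC 0 passed (0.33% of 14543 genes) and 4 had an unadjusted p under 0.05 (16%). DESeq2 called 0 genes in aDG (0.264% of all genes), 0 in pDG (0.535%), 0 in BLA (0.474%) and 1 in ACC (3.45%).

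One library set the direction in aDG. With all libraries the median log2 difference of betamethasone against saline was -0.72, and 23 of 24 genes had a value below 0. Without the library labelled aDG saline replicate 5 the median was 0.06, and 10 genes had a value below 0, with 0 past the threshold (1 of the 14480 genes tested was). The medians in the other regions were -0.13 in pDG, 0.12 in BLA (0.11 without saline replicate 5) and 0.01 in ACC, and those of all genes lay between -0.01 and 0.02.

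With all libraries ENSMFAG00000034252 had the lowest unadjusted p of the 24 genes in aDG. It had 1.55, 1.88, 2.51, 2.86 and 2.35 CPM there with betamethasone, against 3.17, 3.28, 3.52, 2.37 and 3.68 CPM with saline without replicate 5, which held 11.3 CPM. The values overlapped, and the log2 difference was -1.05 with all libraries and -0.51 ± 0.21 without that library (SE; edgeR adjusted p = 1 for both). Without that library ENSMFAG00000034168 had the lowest unadjusted p in aDG (0.0325, against 0.0339 for ENSMFAG00000034252, from edgeR's model). It had 12.3, 12.1, 14.05, 12.3 and 10.9 CPM with betamethasone, against 9.36, 11.3, 8.05, 11.4 and 8.03 CPM with saline without replicate 5, which held 27.7 CPM, and the groups overlapped. Its log2 difference was 0.36 ± 0.15 without the library (SE; edgeR adjusted p = 1) and -0.05 with all libraries. ENSMFAG00000033072 in aDG had 0.253 to 0.899 CPM with betamethasone, against 0.604 to 1.31 CPM with saline without replicate 5, which held 5.06 CPM. Its log2 difference was -1.36 with all libraries and -0.57 without that library (edgeR adjusted p = 1 for both).

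The values of the genes in pDG, BLA and ACC are given as a description, without a test. In pDG ENSMFAG00000034252 had 1.43, 1.59, 0.804, 1.60 and 1.08 CPM with betamethasone, against 1.70, 2.05 and 2.75 CPM (lowest, median, highest) with saline, and the log2 difference was -0.73. In ACC it had 7.71, 8.47 and 9.66 CPM (lowest, median, highest) with betamethasone, against 8.99, 12.4 and 14.2 CPM with saline, with the groups overlapping (log2 difference -0.43).

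In BLA ENSMFAG00000034252 had 9.16, 8.28, 8.66 and 6.96 CPM with betamethasone, against 12.6, 9.25, 11.9, 12.2 and 10.7 CPM with saline without replicate 5, which held 7.07 CPM. Its groups overlapped only through that library, and the log2 difference was -0.29 with all libraries and -0.40 without it.

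Other genes differed in either direction. ENSMFAG00000032887 in pDG (values above) differed by -0.37 on the log2 scale. ENSMFAG00000034168 differed by 0.30 in pDG, by 0.12 in ACC and by 0.21 in BLA, or by 0.41 in BLA without saline replicate 5.

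In BLA ENSMFAG00000032453 had 55.3, 44.0, 48.8 and 42.6 CPM with betamethasone, against 23.4, 38.2 and 46.1 CPM (lowest, median, highest) with saline. The log2 difference was 0.40 with all libraries and 0.44 without saline replicate 5. ENSMFAG00000040258 in BLA had 5.66, 5.58, 4.20 and 5.13 CPM with betamethasone, against 0.196, 3.16 and 4.93 CPM with saline, of which the lowest is replicate 5. Its log2 difference was 0.99 with all libraries and 0.73 without replicate 5. ENSMFAG00000034196 in ACC had 2.23, 3.05 and 4.43 CPM with betamethasone, against 3.23, 4.54 and 5.65 CPM with saline, with the groups overlapping (log2 difference -0.53).

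The 2 libraries that stood apart did so in different ways. The library labelled aDG saline replicate 5 held 23 of the 24 genes above the highest of the other 5 aDG saline libraries, as it did 23.2% of all genes with means of at least 2 CPM in BLA and ACC. The exception was ENSMFAG00000040281, with 5.87 CPM against 3.71 to 12.6 CPM in the others. The 24 genes stood at a median of 4.24-fold the mean of the other 5 aDG saline libraries and at 104% (median; range 23.6% to 187%) of the mean of the 5 BLA saline libraries. For 21 genes it was at or above the lowest of those BLA libraries (76.7% of all genes), and for 16 it lay within their range (61.7% of all genes). Both counts lie near the share of all genes, and those BLA libraries chose the genes. Nothing particular to the 24 is read from these counts. ENSMFAG00000032887, for example, had 143 CPM there, against 15.2, 11.5, 18.1, 14.96 and 12.9 CPM in the other aDG saline libraries.

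BLA saline replicate 5 had values on both sides of its group. The rule chose the genes on the other 5 BLA saline libraries and left this one out. Genes low in it alone could therefore enter the 24, and with it kept in 9 of the 24 met the rule. The counts below are a description, and nothing particular to the 24 is read from the shares of all genes beside them. For 6 of the 24 genes it was above the highest of the other 5 BLA saline libraries (28.4% of all genes) and for 13 below the lowest (28.2% of all genes). It was at least 2-fold above their mean for 4 genes (4.73% of all genes) and at most 50% of it for 12 (7.83% of all genes). For 9 genes it was at or below the highest pDG saline library (71.3% of all genes). In the 24 the rule had kept that pDG value at or under 50% of the lowest of the other 5 BLA libraries. The count and the share are therefore not alike. ENSMFAG00000024718 had 461.6 CPM in it, against 49.2 to 90.8 CPM in the others, and ENSMFAG00000040768 had 74.0 CPM, against 22.9 to 29.9 CPM. In the other direction ENSMFAG00000032887 had 9.44 CPM, against 104 to 149 CPM, and ENSMFAG00000034196 had 0.161 CPM, against 1.57 to 4.28 CPM.

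**Figure D5:**
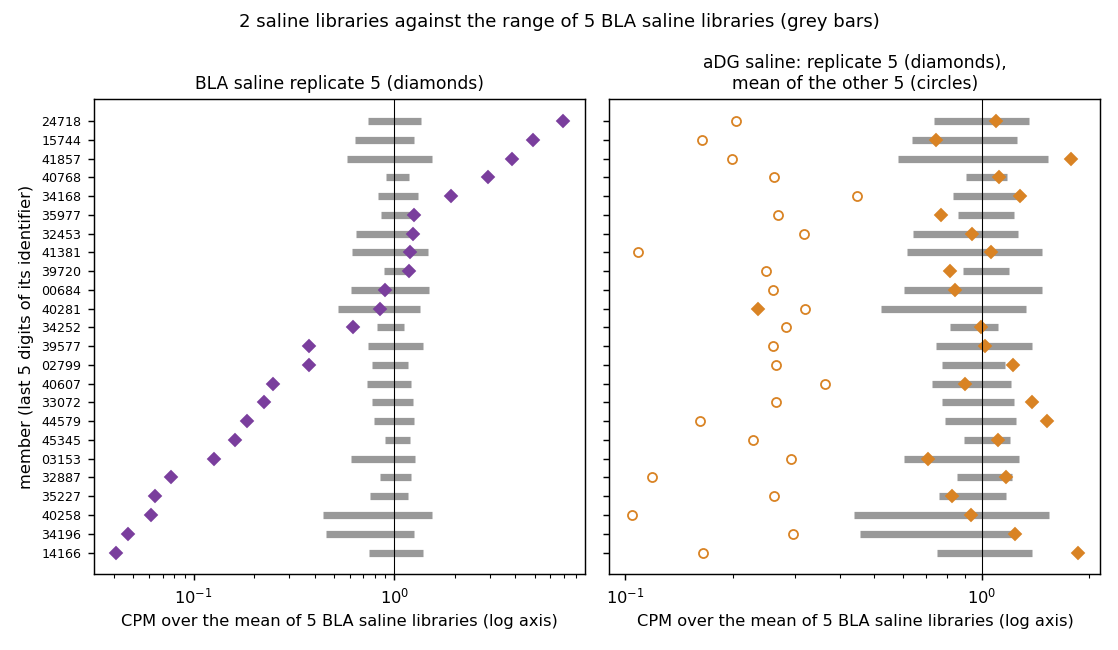
CPM of each of the 24 genes over the mean of 5 BLA saline libraries (log axes; grey bars span those 5 libraries), on the left in BLA saline replicate 5 (diamonds) and on the right in the library labelled aDG saline replicate 5 (diamonds) and in the mean of the other 5 aDG saline libraries (circles). On the left the genes run from 4.12% to 691% of the BLA mean; on the right the diamonds sit at a median of 104%, with ENSMFAG00000040281 the lowest at 23.6%.

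In each group the median spread between libraries was wider for the 24 genes than for all genes of at least 2 CPM, which were not matched for level. The median coefficient of variation (SD over mean) was 37.6% in aDG betamethasone libraries (all genes of at least 2 CPM there 15.2%) and 27.6% in pDG betamethasone libraries (13.0%). It was 21.4% in BLA (11.99%) and 20.4% in ACC betamethasone libraries (9.98%). In saline libraries it was 24.9% in pDG (14.7%) and 22.2% in ACC (14.5%), and without replicate 5 it was 27.3% in aDG (15.3%) and 22.7% in BLA (15.2%), or with it 87.3% in aDG (18.2%) and 41.8% in BLA (18.3%). Genes of low CPM count among the 24 in the dentate gyrus, where the lowest mean was 0.169 CPM in pDG betamethasone libraries, whereas the value for all genes leaves out means under 2 CPM. The rule also bounded the saline values of pDG, of ACC and of BLA without replicate 5. No test was made of the spread in any group.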

How the data were processed

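The aligner of the 44 RNA-seq libraries was STAR, per the submitters' processing notes. The authors deposited whole-number read counts per gene, unstranded and for each strand. Neither its version nor the annotation release is given in the sources used here, so no coordinates are printed. Column 4, the strand with 51.7 to 79.3 times the reads of the other, was used; identifiers on several rows were summed. Rows naming no gene stayed out of library sizes. Of all reads, 11.0% to 31.4% were unmapped, and 24.5% to 37.2% of mapped reads lay outside genes, with 0.333% to 0.455% ambiguous. Depth had a median of 44944900 gene reads.

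Tests used edgeR 4.0.16 under R 4.3.3 (TMM, filterByExpr with minimum count 10 and minimum total 15, robust quasi-likelihood F tests, Benjamini-Hochberg adjustment over all genes kept, threshold 0.05). Regions were compared in 1 fit of the 20 betamethasone libraries and treatment within each region; SE is the log2 difference over the square root of F. DESeq2 1.42.0 was an alternative. The fits were also run on counts simulated for independent libraries, with none made to stand apart. Nothing about the present libraries is read from that run. All 101 pairs of libraries within groups differed by more than counting error, with a chi-square of at least 20.1 per degree of freedom. The genes and comparisons were chosen with earlier results of these data known. Genes are named by a rule: the 2 lowest ratios, the 2 highest means, the 2 nearest the threshold on each side, the 2 highest and 2 lowest ratios of aDG to pDG, and per comparison the 2 with the lowest adjusted p in each direction, or the lowest p where none passed. Exceptions are said in the text. Lists of cell type markers could not be applied, because 0 identifiers matched gene names, and no promoter, transcript or protein sequence is shown for the same reason.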

Additional observations from a re-analysis of the deposited data

Results flagged for a closer look

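Groups of 4 to 6 libraries were examined, 144 in all (the summed level, and each of 17 genes shown above, in each of the 8 groups). In 31 the highest or lowest library lay far from the rest. The cut is one that about 1 in 20 groups of independent, normally distributed values would pass. These are raw CPM of genes picked partly on the same values, so the 31 cannot be set against that share. Of the 31, 15 were the library labelled aDG saline replicate 5, 5 were BLA saline replicate 5 and 11 were others.

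In the library labelled aDG saline replicate 5 the sum of the 24 genes was 741 CPM, against 148 to 246 CPM in the other 5. It was the highest for ENSMFAG00000032887 (143 CPM, others at most 18.1), ENSMFAG00000041381 (3.59, others at most 0.479), ENSMFAG00000039720 (136, others at most 52.5) and ENSMFAG00000040768 (28.3, others at most 8.97). The same held for ENSMFAG00000034196 (4.25), ENSMFAG00000035977 (3.06), ENSMFAG00000024718 (73.4), ENSMFAG00000034168 (27.7) and ENSMFAG00000035227 (5.55). It held as well for ENSMFAG00000034252 (11.3), ENSMFAG00000033072 (5.06), ENSMFAG00000040258 (2.99), ENSMFAG00000039577 (11.99) and ENSMFAG00000000684 (2.11, others at most 0.899).

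In BLA saline replicate 5 the sum was 1310.0 CPM, against 692 to 885 CPM in the other 5. ENSMFAG00000024718 (461.6 CPM) and ENSMFAG00000040768 (74.0 CPM) were highest there, and ENSMFAG00000032887 (9.44 CPM) and ENSMFAG00000035227 (0.428 CPM) were lowest.

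The other 11 were spread over 8 libraries. In pDG betamethasone replicate 1, ENSMFAG00000039577 had 14.1 CPM (others at most 1.68) and ENSMFAG00000034196 had 0.611 CPM (others at most 0.409). In pDG betamethasone replicate 4, ENSMFAG00000035227 was lowest, with 0.629 CPM (others at least 1.10). In aDG betamethasone replicate 3, ENSMFAG00000040281 had 17.0 CPM (others at most 7.82) and ENSMFAG00000035977 had 1.54 CPM (others at most 1.19), and in replicate 4 ENSMFAG00000039577 had 11.0 CPM (others at most 3.64). In BLA betamethasone replicate 1, ENSMFAG00000041381 had 3.66 CPM (others at most 3.06) and ENSMFAG00000033072 had 4.22 CPM (others at most 1.10), and in replicate 3 ENSMFAG00000040281 had 40.9 CPM (others at most 12.6). In ACC saline replicate 3, ENSMFAG00000035227 had 11.4 CPM (others at most 8.44), and in ACC saline replicate 6, ENSMFAG00000040258 had 5.95 CPM (others at most 2.65).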

How the results depend on the processing

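The counts of the 24 genes past the threshold were recomputed with another scaling (DESeq2's size factors, upper quartile), with no filter, on unstranded counts, with DESeq2, with the compared regions fitted alone, with title numbers as a replicate block and without each library. They moved by over 1.5 times in few cases. With only the 2 compared regions fitted, 0 genes passed for aDG against pDG (0.284% of all genes were higher) and 7 for BLA against ACC (46.2%). DESeq2 called 1 in the treatment comparison of ACC (3.45% of all genes), where the saline libraries also chose the genes. Without 1 library the count for aDG against pDG ran from 3 to 8, where 107 to 286 of all genes tested were higher. None of the 53 recomputed results of single genes reversed its direction, and 42 kept their side of the threshold in every setting. These were chosen results of genes named above. Over all 24 genes, single genes did reverse for treatment in aDG. There 23 had a value below 0 with all libraries and 10 without the library labelled aDG saline replicate 5. The median treatment difference in aDG did change direction: it was -0.72 with all libraries and 0.06 without the library labelled aDG saline replicate 5. No paired analysis was planned as the main fit, because the labels give no animal. Numbers in the titles match 18 of the betamethasone libraries in 5 sets, and 19 of 25 pairs of matched libraries deviated together (correlation over 0.1), which leaves these numbers a hint and no pairing. With the sets as a replicate block 23 genes passed in each comparison of a dentate part with BLA or ACC, all of them lower. Of the 14918 genes tested, 2105 were lower in pDG against BLA and 3499 against ACC. In aDG the numbers were 2530 and 4014. For aDG against pDG 10 passed, all higher (2.45% of all genes were higher). For BLA against ACC 4 passed in either direction (40.8%). In the same 18 libraries without the block, a fit chosen after seeing the data, 6 passed for aDG against pDG, all higher (0.979% of all genes were higher). Group sizes of 4 to 6 libraries, and counts as low as 1 in the dentate gyrus, limit the precision. The causes were not tested.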
